A study of Mus musculus with 8 samples.

Results

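Cd40 and Cd40lg are a receptor and its ligand, 2 of the 32285 genes listed in single-cell expression matrices of mouse CD45+ cells. They were taken by symbol, with no measured value used in the choice. Cd40 (ENSMUSG00000017652) lies on chromosome 2 from 165055614 to 165071654, and Cd40lg (ENSMUSG00000031132) on chromosome X from 57212143 to 57224042, in RefSeq's annotation of GRCm38.p6, a patch release of the mm10 build. In that annotation 0 other genes overlapped either of them.

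Leukocytes came from submandibular glands, a pair of major salivary glands, and from the lymph nodes that drain them, in 4 SS mice and 4 control mice aged about 12 weeks. The labels give the genotypes only as SS and control and do not spell out SS, nor any allele, strain or treatment. Cells stained for CD45.2 were sorted, after collagenase digestion at a raised temperature for glands and trituration alone for nodes. The design gives 1 expression library for each of SS gland, control gland, SS nodes and control nodes, and the labels do not say how the mice were divided among them. The expression matrices carry the names C1, C2, C3 and C4, and no label ties these names to a genotype or tissue. What a library contained was not used to place it, so neither genotypes nor tissues are compared here, and values stand side by side with no test. With 1 library each, the 95% intervals (exact Poisson for levels, exact Clopper-Pearson for shares) cover counting error only and say nothing of the spread between mice.

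CD40 ligand is a membrane protein of the tumour necrosis factor family that T cells, above all activated CD4 T cells, carry to their targets. Its receptor CD40 is carried by B cells, dendritic cells, macrophages and some non-immune cells, has no enzyme activity of its own, and signals through TRAF adaptor proteins to the NF-kB pathways. In lymphoid tissue this contact drives B cell proliferation, class switching and germinal centres, and it licenses dendritic cells and macrophages to stimulate T cells.

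The 4 matrices held between 37902916 and 77819179 UMIs (unique molecular identifiers, 1 per captured RNA molecule). A barcode counted as a cell with 500 UMIs or more, 300 genes or more, and mitochondrial UMIs of 10% or less. C1 to C4 had 5616, 5067, 8532 and 5957 such barcodes, and their median depths lay between 4939 and 8076 UMIs. Pairs of libraries shared between 31 and 85 of these barcodes. These barcodes of C1 to C4 held 930, 1009, 2051 and 1989 Cd40lg UMIs, and 406, 748, 943 and 1081 Cd40 UMIs. After removal of called doublets, clusters were named from marker genes, with -like added to each name. The doublet caller failed on C2 and C3, so doublets remain in these libraries. Cd40 and Cd40lg were kept out of the genes used for clustering.

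The libraries held different mixtures of these classes. From C1 to C4, T-like barcodes made up 11.1%, 64.7%, 88.0% and 64.6% of kept barcodes. Macrophage-like barcodes made up 45.4% of C1 and 9.06% of C2, and numbered 22 in C3 and 4 in C4. There were 62, 10, 738 and 1934 B-like barcodes from C1 to C4. The clusters were named from these marker lists, so the sums of a class's own list describe it and are no check of its name. The 6 T cell markers summed to between 3625 and 6359 UMIs per 1000000 UMIs of the group (CPM) in T-like barcodes, the 6 B cell markers to between 5304 and 7871 CPM in B-like barcodes, and the 8 macrophage markers to 34617, 28477, 11125 and 6984 CPM from C1 to C4 in macrophage-like barcodes. Markers of other classes were present as well: T cell markers summed to 87.3 CPM (C1) and 582 CPM (C2) in macrophage-like barcodes, and to between 48.5 and 755 CPM in B-like barcodes.

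**Figure D1:**
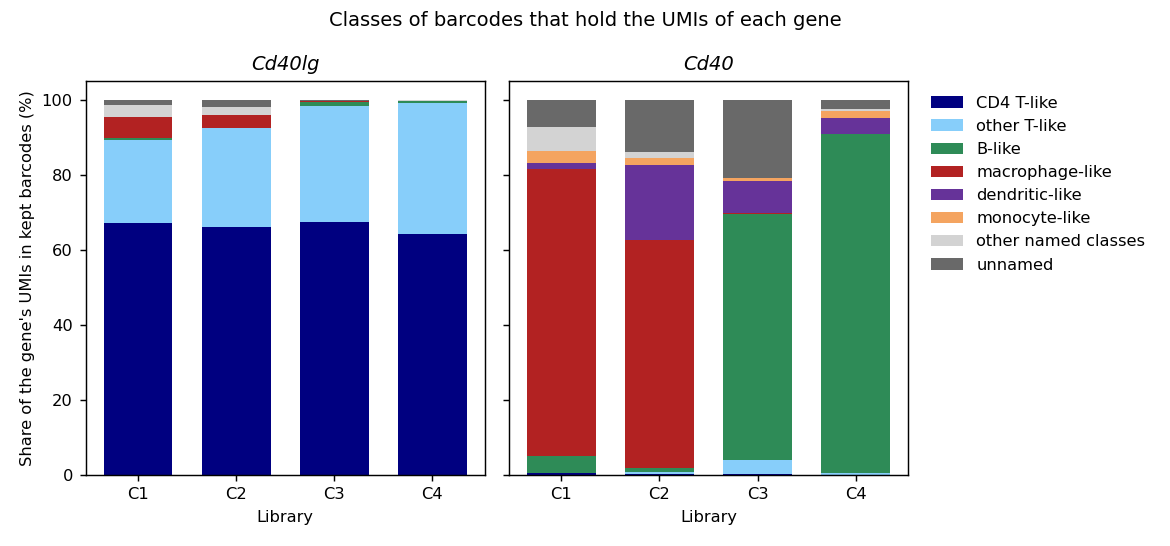
Stacked bars give, for each library, the percentage of the UMIs of Cd40lg (left) and Cd40 (right) in kept barcodes that lay in each class of barcodes. CD4 T-like barcodes held between 64.2% and 67.4% of Cd40lg UMIs in the 4 libraries, whereas Cd40 UMIs lay mostly in macrophage-like barcodes in C1 and C2 and in B-like barcodes in C3 and C4.

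The ligand was a CD4 T cell transcript in all 4 libraries. CD4 T-like barcodes, defined by a Cd4 UMI and no UMI of Cd8a, Cd8b1 or Foxp3, held 67.1%, 66.2%, 67.4% and 64.2% of the Cd40lg UMIs of kept barcodes in C1, C2, C3 and C4. T-like barcodes with neither co-receptor detected added between 12.2% and 20.5%. The share in CD4 T-like barcodes was thus nearly the same although the number of these barcodes was 264, 688, 1228 and 1523.

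Cd40lg stood at 412 CPM in CD4 T-like barcodes of C1 (interval 379 to 447), from 572 UMIs. The C2 value was 191 CPM (177 to 206), the C3 value 174 CPM (165 to 183) and the C4 value 133 CPM (126 to 141). The C1 interval lay above the other 3, the C2 and C3 intervals overlapped, and the C4 interval lay below the rest. The highest level was 3.09 times the lowest. Of 8030 genes with at least 50 UMIs in their highest library, 32.0% differed by 2-fold or more between the highest and the lowest library in CD4 T-like barcodes, and 6.65% did so with C1 highest. A smaller ratio than that of Cd40lg was found for 83.6% of these genes.

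C1 had the highest level under every alternative tried, but the place of C2 depended on which clusters were called T cells. The C2 level was 43.2 CPM (360 barcodes) when each library was clustered alone, and 66.7 CPM (435 barcodes) when leading genes were ranked over all other barcodes, and both lay below C3 and C4. With at least 2 Cd4 UMIs required it was 162 CPM. The C1 level was 287 CPM with leading genes ranked over all other barcodes, where 8 barcodes were left.

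By detection, 70.5% of CD4 T-like barcodes in C1 held a Cd40lg UMI, against 33.6%, 48.6% and 48.0% for C2, C3 and C4. After each barcode was thinned to 2000 UMIs these shares were 42.7% (36.6 to 49.0), 23.2% (20.1 to 26.6), 25.3% (22.9 to 27.9) and 22.8% (20.7 to 25.0), with 4, 25, 39 and 16 shallower barcodes left out. At a common depth C1 stood apart and the other 3 intervals overlapped. The median depths of the CD4 T-like barcodes were 5089, 4382, 5031 and 5844 UMIs.

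UMIs of the ligand were spread unevenly over CD4 T-like barcodes. In C2, 457 of 688 barcodes had none, and the 10% of barcodes with the most held 61.1% of the Cd40lg UMIs. For C1, C3 and C4 that figure was 39.3%, 46.6% and 39.7%. In C4 no CD4 T-like barcode held more than 6 Cd40lg UMIs, while the most in 1 barcode was 27, 16 and 24 for the other libraries in order. C2 therefore combined many barcodes without the ligand with a smaller number that carried several molecules.

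**Figure D2:**
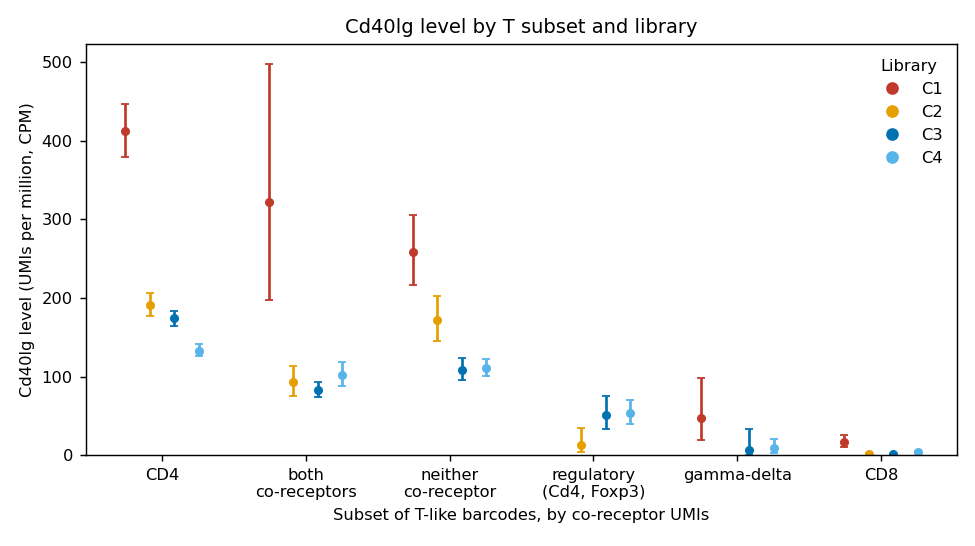
Points give the Cd40lg level in CPM (vertical axis) in 6 subsets of T-like barcodes (horizontal axis) for libraries C1 to C4, with exact Poisson 95% intervals, for subsets of at least 10 barcodes. CD4 barcodes had the highest level in every library, regulatory barcodes lay at or below 53.2 CPM and CD8 barcodes at or below 16.8 CPM.

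CD8 T-like barcodes carried little of the ligand. C1 had 195 of them, at 16.8 CPM (10.4 to 25.7), and C2 had 2199, at 2.02 CPM (1.33 to 2.94). C3 had 5424, at 1.69 CPM (1.36 to 2.09), and C4 had 1100, at 4.15 CPM (2.91 to 5.75). At 2000 UMIs, 2.59%, 0.325%, 0.315% and 1.55% of them held a UMI. In each library the CD8 interval lay below the CD4 interval.

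Regulatory T-like barcodes, with Cd4 and Foxp3 UMIs, held less Cd40lg than other CD4 barcodes in the 3 libraries with more than 4 of them. Foxp3 encodes the factor that defines regulatory T cells. The 42 such barcodes of C2 stood at 13.5 CPM (3.68 to 34.6), the 58 of C3 at 51.0 CPM (33.0 to 75.4) and the 117 of C4 at 53.2 CPM (39.6 to 70.0). These intervals lay below those of CD4 T-like barcodes of the same library, and C1 had 4 regulatory barcodes with 0 Cd40lg UMIs.

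Gamma-delta T-like barcodes, which express Trdc, held 7 Cd40lg UMIs in the 25 of C1 (47.4 CPM), 1 in the 30 of C3 (6.09 CPM), 5 in the 86 of C4 (9.13 CPM) and 0 in the 4 of C2. T-like barcodes with neither Cd4 nor Cd8 detected were much closer to CD4 barcodes, at 258, 172, 109 and 111 CPM. Barcodes with both co-receptors stood at 322, 93.6, 83.1 and 102 CPM, the first value from 12 barcodes. Their median depth in C3 was 11402 UMIs, against 5031 in CD4 and 8933 in CD8 T-like barcodes of that library.

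Classes that should lack the ligand gave its background. B-like barcodes of C1 to C4 held Cd40lg at 16.9, 0, 3.48 and 1.38 CPM, of which the C1 value came from 6 UMIs in 1 barcode. Macrophage-like barcodes held it at 2.71 CPM (C1) and 7.86 CPM (C2). After thinning, the shares were 0.415% and 0.107% in B-like barcodes of C3 and C4, and 0.472% and 1.04% in macrophage-like barcodes (C1 and C2), whose median depths were 5336, 3896, 6343 and 8932 UMIs. These lay far below every CD4 share.

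Macrophage-like barcodes with Cd40lg also held T cell receptor complex transcripts. Among macrophage-like barcodes with no UMI of Cd3d, Cd3e, Cd3g or Trac, 0 of 2384 in C1 and 0 of 378 in C2 held a Cd40lg UMI. The upper bounds of the exact intervals were 0.155% and 0.971%, and a limit of 3 counts gives 0.126% and 0.794%. Among B-like barcodes so selected, 5 of 636 in C3 and 2 of 1855 in C4 held 1 UMI each. This selection was added after the values had been seen. Barcodes of at least 50 and under 200 UMIs, taken as free RNA, held Cd40lg at 2.32 CPM (C1) and 1.46 CPM (C2). In C3 they held 0 UMIs (upper bound 11.9 CPM), and in C4 35.0 CPM (7.22 to 102) from 3 UMIs.

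Genes of T cell state split the CD4 T-like barcodes of C2 most. In that library barcodes with a UMI of Nr4a1, an early gene of T cell receptor signalling, held Cd40lg at 296 CPM (328 barcodes), and those without it at 75.8 CPM (360 barcodes). Their median depths were similar, at 4773 and 4243 UMIs. In C3 the levels were 315 CPM with Nr4a1 (98 barcodes) and 157 CPM without it. Unthinned detection of Cd40lg differed less in C3, at 53.1% with and 48.2% without Nr4a1, with overlapping intervals. In C2 these shares were 51.8% and 16.9%. The levels in C1 were 415 and 390 CPM, and in C4 129 and 134 CPM, with overlapping intervals in both C1 and C4. Whether the split differed between libraries was not tested.

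Cd69, an early activation marker, and Icos, a co-stimulatory receptor of helper T cells, gave the same direction in C2. Levels were 225 CPM with and 92.6 without Cd69, and 225 with and 105 without Icos. In C3 they were 184 and 149.7 CPM for Cd69, and 195 and 132 for Icos. In C4 the level was 133 CPM both with and without Icos, and 134 with and 131 without Cd69. The C1 levels were 423 with and 328 without Cd69, and 405 with and 447 without Icos, with overlapping intervals for both genes. Not only activation genes had this direction in C2. Ccr7, a gene of naive and recirculating T cells, gave 345 CPM with it (282 to 419, 50 barcodes) and 177 CPM without it (162 to 192).

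Pdcd1, Ifng, Cxcr6 and Rgs1 went the other way in C2. Cxcr6 gave 153 CPM with and 249 CPM without it, and Rgs1 gave 177 and 295 CPM. Pdcd1 encodes the inhibitory receptor PD-1, and barcodes with it held 125 CPM of Cd40lg against 308 CPM without it. Ifng encodes interferon gamma, and the levels were 105 CPM with and 253 CPM without it. Ifng gave the same direction in C3, with 68.5 CPM in 171 barcodes with it and 193 CPM in the others. Pdcd1 did not do so in C3, where the levels were 187 CPM with and 165 CPM without it, with overlapping intervals. In C1 the levels were 405 and 418 CPM by Ifng, and by Pdcd1 they were 488 with and 382 without it.

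Splitting C2 by Nr4a1 and Pdcd1 together, a description added after the values had been seen, ordered 4 groups of CD4 T-like barcodes. Cd40lg was 400.3 CPM with Nr4a1 alone (164 barcodes), 216 CPM with both (164), 149 CPM with neither (116) and 47.9 CPM with Pdcd1 alone (244). In C3 the order differed: 393 CPM with both (47 barcodes), 171 with Nr4a1 alone, 165 with neither and 143 with Pdcd1 alone. Pdcd1 without Nr4a1 had the lowest level in both libraries, although the last 3 intervals of C3 overlapped.

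Helper cytokines marked smaller sets. Il17a, the cytokine of Th17 cells, was found in 20 CD4 T-like barcodes of C2, which held 659 CPM of Cd40lg against 176 CPM in the rest, and 531 CPM without the barcode with the most Cd40lg UMIs. In C1 it was found in 37 barcodes, at 510.4 against 398 CPM with overlapping intervals, and the direction turned on 1 barcode: without the one with 27 Cd40lg UMIs, an alternative added after the values had been seen, the level was 363 CPM. Il21, the cytokine of follicular helper T cells, was found in 101 barcodes of C3, at 236 CPM against 163 CPM, and in 37 of C2, at 167 against 193 CPM. Cxcr5, their homing receptor, gave 145 CPM with and 183 without it in C3, and 160.3 and 193 CPM in C2. Barcodes with Cxcr5 and Pdcd1 together, an added description, stood at 151 CPM in C3 (111 barcodes) and 129 CPM in C2 (25).

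In C4 the ligand did not differ beyond its intervals by Ccr7 and Lef1 together. Of 1523 barcodes, 79.3% held UMIs of Ccr7 and Lef1 together, genes of naive and recirculating T cells, and these stood at 130.3 CPM (122 to 139, 1207 barcodes). The 49 barcodes with neither gene stood at 129.8 CPM (85.5 to 189). Of the genes with at least 20 barcodes on each side, Tnfrsf4 (OX40) and Cxcr6, a receptor of tissue T cells, departed most: 81.3 CPM with Tnfrsf4 against 139 without it, and 206 CPM with Cxcr6 (28 barcodes) against 131. The share with both Ccr7 and Lef1 was 6.44% in C1, 2.47% in C2 and 30.6% in C3.

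**Figure D3:**
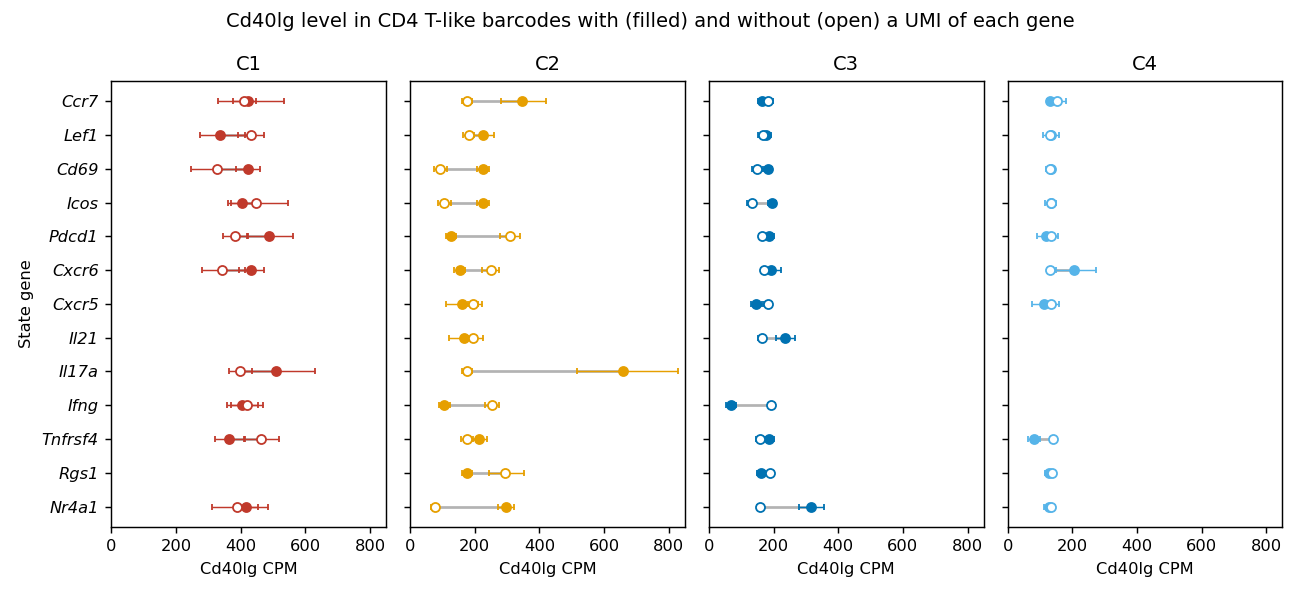
Each panel gives, for 1 library, the Cd40lg level in CPM (horizontal axis) in CD4 T-like barcodes with (filled) and without (open) a UMI of each state gene (vertical axis), with exact Poisson 95% intervals, where both sides had at least 20 barcodes. C2 shows the widest splits, such as 296 and 75.8 CPM by Nr4a1, and the points of C4 lie mostly near its overall 133 CPM.

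Clusters showed the same unevenness, as a description, since a cluster is no independent group. In C2, 36.0% of CD4 T-like barcodes fell in cluster 8, led by Il17a and Icos, at 435 CPM of Cd40lg. Another 54.1% fell in cluster 3, at 56.4 CPM. That cluster was led by Gzmk, with Cd8b1, Cd8a and Pdcd1 among its 10 leading genes. Whether its CD4 T-like barcodes were CD4 cells was not tested, and the splits of C2 by state gene above include them. Cluster 8 also held 95.5% of CD4 T-like barcodes of C1, at 419.7 CPM. Cluster 7, led by Izumo1r (folate receptor 4), held 60.2% of those of C3, at 233 CPM, and cluster 0, led by Igfbp4 and Lef1, held 87.7% of those of C4, at 132 CPM. In C4, cluster 7 (89 barcodes) stood higher, at 204 CPM (168 to 245), and cluster 16 (26 barcodes), with Foxp3 among its leading genes, lower, at 14.3 CPM (1.74 to 51.8). Within cluster 8 the intervals of C1 (386 to 456) and C2 (398 to 474) overlapped.

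Early response genes, which rise within minutes of a stimulus, were highest in the library that was highest for the ligand. All 11 listed genes could be tested and differed by 2-fold or more between libraries, each with C1 highest, against the 6.65% of all genes given above, and their summed level in CD4 T-like barcodes was 14099.6, 5611, 2597 and 3203 CPM from C1 to C4. Junb stood at 6545, 2489.7, 1275 and 1698 CPM, and Dusp1 at 1864, 1042, 395 and 249 CPM. A Nr4a1 UMI was found in 83.3%, 47.7%, 7.98% and 17.0% of CD4 T-like barcodes. The part of this response in the ligand's levels was not tested.

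Of 15 T help genes, 14 had at least 50 UMIs in their highest library, and 14 differed by 2-fold or more among CD4 T-like barcodes, with a median ratio of 10.7. Over all genes tested the share was 32.0% and the median ratio 1.62. C1 was highest for 4 of them, C2 for 4, C3 for 6 and C4 for 0. Icos stood at 834, 455, 324 and 49.6 CPM in C1 to C4, the same order of libraries as Cd40lg. Maf, a factor of IL-21 and IL-10 producing T cells, stood at 435, 349.9, 165 and 24.3 CPM.

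The other T help genes named here did not follow that order. Cd28, the receptor of B7 ligands, stood at 337, 344, 266 and 144 CPM, and Tnfrsf4 at 235, 249, 248 and 27.9 CPM. Pdcd1 stood at 119, 406, 105 and 9.86 CPM, highest in C2. C4 was thus lowest for all 5 of these named genes, while its Cd40lg level was 133 CPM.

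The receptor had a wider range of carriers than the ligand. Macrophage-like barcodes held 76.6% of the Cd40 UMIs of kept barcodes in C1 and 60.8% in C2. B-like barcodes held 65.5% in C3 and 90.5% in C4. Small dendritic-like groups of 4 to 18 barcodes held 1.54%, 19.9%, 8.48% and 4.30%, and clusters left unnamed held 7.20%, 14.0%, 20.8% and 2.58%.

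B-like barcodes carried Cd40 at 97.7 CPM (90.2 to 106) for the 738 of C3 and 109 CPM (102 to 116) for the 1934 of C4. The 62 of C1 held 17 UMIs, or 47.9 CPM (27.9 to 76.6), and the 10 of C2 held 8 UMIs, or 147 CPM (63.6 to 290.3). The C1 interval lay below those of C3 and C4, which overlapped each other. The class lay in different clusters: 48 of the 62 barcodes of C1 were in cluster 25, which held none of C3 and C4, while 572 barcodes of C3 and 1856 of C4 were in cluster 2. Cluster 25 of C1 stood at 65.5 CPM (35.8 to 109.9), an interval that overlapped those of the whole class in C3 and C4. Among the 3 libraries with at least 50 B-like barcodes the ratio of highest to lowest was 2.28, and 30.7% of 6745 genes tested reached 2-fold there.

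At 2000 UMIs the share of B-like barcodes with a Cd40 UMI was 9.84% (3.70 to 20.2) for C1, 20.7% (17.8 to 23.9) for C3 and 20.5% (18.7 to 22.4) for C4. Before thinning these shares were 22.6%, 46.2% and 35.7%, so C3 and C4 differed in detection before thinning and not after it. The median depths were 4470, 5336 and 3896 UMIs. In C2, 5 of the 10 B-like barcodes held a UMI before thinning.

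Within B-like barcodes Cd40 was lower in those of germinal centre type, with UMIs of at least 2 of S1pr2, Rgs13, Mef2b, Gcsam and Bcl6. They stood at 72.2 CPM in C3 (62.3 to 83.3, 148 barcodes) and 59.3 CPM in C4 (46.0 to 75.4, 86 barcodes). Other B-like barcodes with Ighd, the IgD heavy chain of naive B cells, stood at 125 CPM in C3 (112 to 139) and 117 CPM in C4 (108 to 126). The intervals did not overlap in either library. Germinal centre type barcodes were deeper, with medians of 15533 and 9232 UMIs against 4865 and 3900, and unthinned detection in C3 ran the other way, at 56.1% against 43.8%, while at 2000 UMIs it was 12.3% (7.47 to 18.8) against 19.9% (16.3 to 23.9). In C4 the thinned shares were 10.7% (5.02 to 19.4) and 19.8% (17.8 to 22.0), so at equal depth the intervals overlapped in both libraries.

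B-like barcodes without Ighd and not of germinal centre type stood at 92.4 CPM in C3 (74.7 to 113, 126 barcodes) and 115 CPM in C4 (99.0 to 133, 396 barcodes). In C4 they did not differ beyond their intervals from barcodes with Ighd. Plasma-like barcodes, the antibody-secreting end of the lineage, held 0 Cd40 UMIs in 43 barcodes of C1 and 0 in 35 of C3, at median depths of 34980 and 29707 UMIs. In C2, 7 UMIs lay in 1 of 22 plasma-like barcodes, and C4 had none of these barcodes.

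Macrophage-like barcodes of C1 held less of the receptor than those of C2. Cd40 stood at 17.6 CPM in C1 (15.6 to 19.7, 298 UMIs in 2473 barcodes) and 102 CPM in C2 (93.1 to 112, 455 UMIs in 459 barcodes), a ratio of 5.82. Different clusters held most of the class, since 2073 of the C1 barcodes were in cluster 4 and 425 of the C2 barcodes in cluster 10. Within cluster 4, the C2 level was 27.5 CPM (11.9 to 54.2, 34 barcodes), an interval that overlapped that of C1 (13.1 to 17.1). Cluster 10 gave 34.9 CPM for C1 (27.5 to 43.7, 400 barcodes) and 107 CPM for C2 (97.7 to 118), without overlap. In cluster 4 the levels of C1 and C2 were closer than the 5.82-fold of the whole class. In cluster 10, 39 of the 76 Cd40 UMIs of C1 lay in 1 barcode, and a level without it was not computed there. That barcode stood at 4648 CPM, so the other C1 barcodes of cluster 10 together lay below 34.9 CPM. Before thinning, 30 of the 400 C1 barcodes of cluster 10 held a Cd40 UMI, against 178 of the 425 of C2. In cluster 4 of C1, 179 of 2073 did, a share whose interval overlapped that of cluster 10 of C1. Over all macrophage-like barcodes 10.5% of 8935 genes tested reached 2-fold, 5.28% with C1 and 5.25% with C2 higher, and 97.6% had a smaller ratio than Cd40. At 2000 UMIs the shares were 2.71% (2.08 to 3.45) and 11.7% (8.68 to 15.4), and before thinning 8.45% and 40.3%, at median depths of 6343 and 8932 UMIs. Without macrophage-like barcodes that held T cell UMIs, an alternative added after the values had been seen, the levels were 17.8 and 114 CPM.

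Cxcl9, a chemokine gene induced by interferon gamma, marked macrophage-like barcodes with more Cd40. In C2, 56.6% of macrophage-like barcodes held a Cxcl9 UMI, at 123 CPM of Cd40 (111 to 136, 260 barcodes) against 53.1 CPM (41.4 to 67.1, 199 barcodes) without it. In C1, 1.94% held one, at 154 CPM (48 barcodes) against 14.0 CPM (12.3 to 16.0). One C1 barcode with 39 Cd40 UMIs set much of that value, and without it the level was 64.4 CPM (42.4 to 93.6). That barcode had 8391 UMIs in all, with 89 of Cxcl9, 51 of C1qa, 16 of Ccr7 and 3 of Ccl22.

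Without Cxcl9 the library difference was still present, at 14.0 CPM for C1 and 53.1 CPM for C2, and the intervals did not overlap. With Cxcl9 its direction turned on 1 barcode: C1 at 154 CPM lay above C2 at 123 CPM, but once the top barcode of each library was left out C2 stood at 116 CPM (104 to 129) and C1 at 64.4 CPM. Depth differed between the groups in C2, with medians of 11332 UMIs with Cxcl9 and 6326 without it. Mrc1, the mannose receptor of resident-type macrophages, gave 81.5 CPM with and 109 without it in C2, and 19.4 and 17.4 CPM in C1, with overlapping intervals in both libraries. Cd86, a B7 ligand, gave 104 and 77.6 CPM in C2 and 17.9 and 14.3 in C1, with overlapping intervals in both.

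Dendritic-like barcodes carried high Cd40 levels. All of them were of a Ccr7 type, with at least 2 of Ccr7, Fscn1, Ccl22, Cacnb3 and Il4i1, genes of mature migratory dendritic cells. The markers that named the class include Ccr7, Fscn1, Ccl22 and Cacnb3, so the naming itself favoured this type. Clusters with Cd209a, or with Xcr1 and Clec9a, among their leading genes stayed unnamed and are given below. The 5 dendritic-like barcodes of C1 stood at 149.8 CPM and the 4 of C2 at 1782 CPM, from 149 UMIs. The 18 of C3 stood at 640.4 CPM (508 to 797) and the 16 of C4 at 308 CPM (224 to 412). Single barcodes weighed heavily: 1 held 58 UMIs in C2, 20 in C3 and 30 of the 45 UMIs in C4. Since no library reached 50 such barcodes, these levels are not compared between libraries. In C3 and C4 their intervals lay above that of B-like barcodes. In C4 their interval overlapped that of the 6 monocyte-like barcodes, at 302 CPM (179 to 477). The class was wider when each library was clustered alone, with 55, 35, 49 and 16 barcodes from C1 to C4, and its Cd40 level was then 37.8, 439, 273 and 308 CPM.

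**Figure D4:**
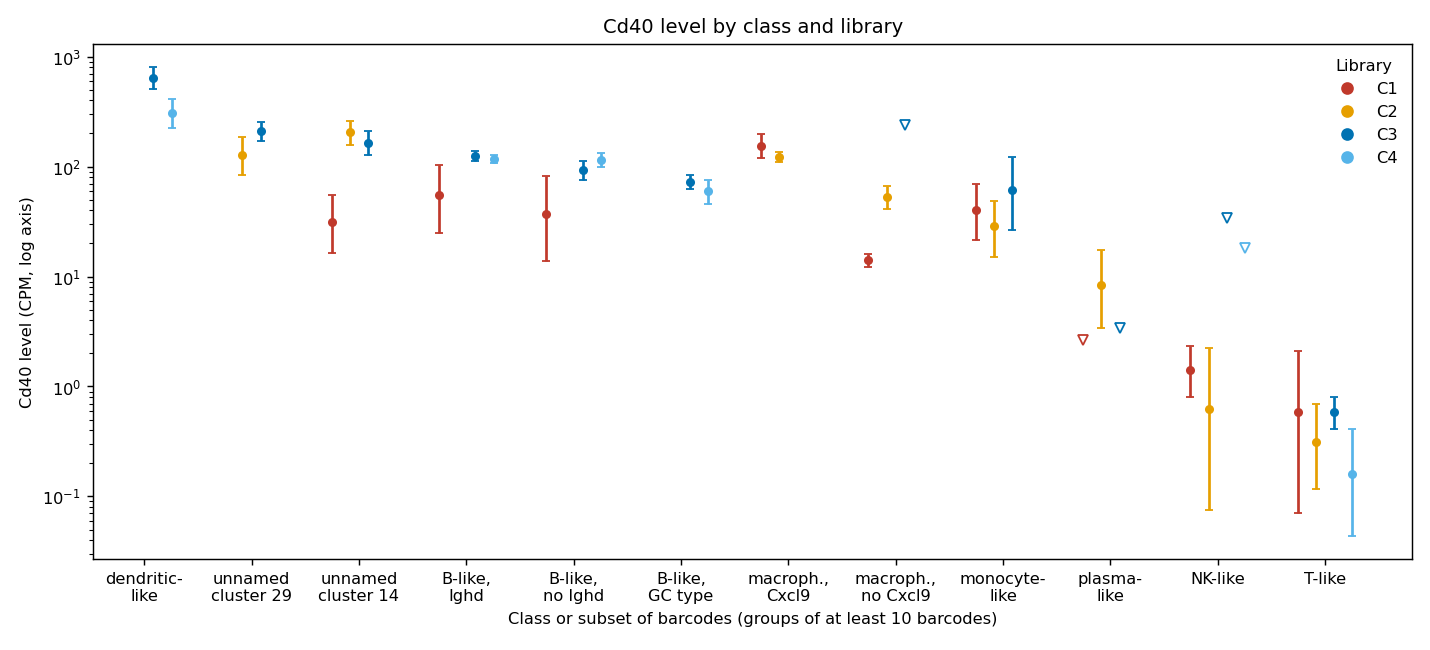
Points give the Cd40 level in CPM (vertical log axis) in classes and subsets of barcodes (horizontal axis) for libraries C1 to C4, with exact Poisson 95% intervals, for groups of at least 10 barcodes; open triangles mark the upper 95% bound where 0 UMIs were found. Dendritic-like barcodes of C3 and C4 lie highest, at 640.4 and 308 CPM, and T-like barcodes lowest, at or below 0.586 CPM. In the C4 dendritic-like group 30 of the 45 UMIs came from 1 barcode.

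Myeloid clusters that stayed unnamed also carried the receptor. Cluster 14, led by Cd209a with Mgl2 and Clec10a, lectin genes of a dendritic cell subset and of some macrophages, stood at 31.6, 205, 165 and 163 CPM from C1 to C4, in 35, 31, 32 and 5 barcodes. Cluster 29, led by Ly6i, Lyz1 and Lyz2, stood at 127 CPM in C2 (28 barcodes) and 210.2 CPM in C3 (40 barcodes). In cluster 14 the C1 interval (16.3 to 55.2) lay below those of C2 (158 to 261) and C3 (127 to 211), the same direction as in macrophage-like barcodes. Cluster 34, with Xcr1 and Clec9a of cross-presenting dendritic cells among its leading genes, held 6, 1 and 4 Cd40 UMIs in 5, 4 and 5 barcodes of C1, C2 and C4. Its levels were 70.8, 12.8 and 46.4 CPM.

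Monocyte-like barcodes of C1 stood at 40.2 CPM (21.4 to 68.7), those of C2 at 28.6 CPM (15.2 to 48.9), those of C3 at 61.5 CPM (26.6 to 121), and those of C4 as given above. In C1 this was above the macrophage-like level of 17.6 CPM, and in C2 below that of 102 CPM, beyond the intervals in both. Plasmacytoid-like barcodes, which specialise in type I interferon, held 0, 0, 1 and 5 Cd40 UMIs in 6, 16, 26 and 20 barcodes.

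T and NK cells gave the background of the receptor. CD8 T-like barcodes held 0, 2, 15 and 0 Cd40 UMIs in C1 to C4, at most 0.296 CPM, and at 2000 UMIs 0%, 0%, 0.0371% and 0% of them held one. NK-like barcodes of C1 and C2 stood at 1.42 and 0.625 CPM, and their thinned shares were 0.287% and 0%, at median depths of 6976 and 8103 UMIs. Free RNA held Cd40 at 1.49 CPM in C1 and 3.90 CPM in C2, and from 3 and 2 UMIs at 9.70 and 23.3 CPM in C3 and C4. The macrophage-like share of 2.71% in C1 was thus low yet above the NK-like share of that library.

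The adaptors of the receptor were closer between libraries than the receptor in macrophage-like barcodes. All 5 TRAF genes could be tested in both classes, and 1 of 5, Traf1, reached 2-fold in each, where 30.7% of all genes did in B-like and 10.5% in macrophage-like barcodes. The median ratios were 1.37 in B-like and 1.43 in macrophage-like barcodes against 1.59 and 1.25 over all genes tested. Traf1, an adaptor that NF-kB itself raises, stood at 40.2 CPM in macrophage-like barcodes of C2 and 18.0 CPM in C1, and at 64.8, 77.3 and 33.1 CPM in B-like barcodes of C1, C3 and C4. Traf6, which also serves Toll-like receptors, ran the other way in macrophage-like barcodes, at 55.0 CPM in C1 and 30.3 CPM in C2. Traf3, which restrains the alternative NF-kB pathway, stood at 19.7 and 28.3 CPM there.

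Of 10 genes of NF-kB and its kinases, 0 of 10 tested reached 2-fold in macrophage-like barcodes, with a median ratio of 1.18, and 1 of 7 did in B-like barcodes. Over all genes these shares were 10.5% and 30.7%, so the counts do not set the list apart. That gene was Rel, an NF-kB subunit, at 408 CPM for C1, 170 for C3 and 237 for C4. In macrophage-like barcodes Rel stood at 334 CPM in C1 and 182 CPM in C2, and Nfkb1 at 137 and 117 CPM. Relb, a subunit of the alternative pathway, stood at 47.0 and 46.7 CPM.

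Genes that CD40 signals are known to raise, which other stimuli raise as well, were mostly higher in C1 in macrophage-like barcodes, unlike Cd40. The 14 listed genes summed to 7981 CPM in C1 and 4102 CPM in C2. Among the tested genes only Icam1 was higher in C2, at 163 against 157 CPM, with overlapping intervals. Of 10 tested, 3 reached 2-fold, all 3 higher in C1, against 10.5% of all genes, 5.28% with C1 higher. Il12b, a subunit of interleukin 12, stood at 84.9 CPM in C1 and 24.7 CPM in C2. Nfkbia, which encodes the inhibitor IkB alpha, stood at 2208 and 773 CPM, and Tnfaip3, which encodes the inhibitor A20, at 761 and 324 CPM. Below 2-fold, Cd83 stood at 2328 CPM in C1 and 1196 CPM in C2, and Bcl2a1b at 1707 and 963 CPM. Of the members with too few UMIs to test, Fas, Cd80 and Ccl22 were higher in C2, as Cd40 was. Fas, a death receptor, stood at 1.95 CPM (1.34 to 2.73) for C1 and 6.97 CPM (4.73 to 9.89) for C2, and Cd80, a B7 ligand, at 2.42 CPM (1.73 to 3.28) and 5.62 CPM (3.64 to 8.29). The chemokine gene Ccl22 stood at 0.943 and 2.47 CPM, with overlapping intervals. Macrophage-like barcodes of C2 also held more T cell marker UMIs than those of C1, and the part of these in such low levels was not tested. Cd86 stood at 483 CPM in both libraries, and Il6 had 0 UMIs in both.

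In B-like barcodes 7 of 9 tested genes of that list reached 2-fold, with a median ratio of 2.93, against 30.7% and a median of 1.59 over all genes tested. They were split between libraries, since C1 was highest for 3, C3 for 3 and C4 for 1. Cd83, an activation marker, stood at 1343, 411 and 455 CPM in C1, C3 and C4, and Bcl2a1b, a survival gene, at 284, 124 and 73.8 CPM. Tnfaip3 had the largest ratio, with 199.9, 52.5 and 37.9 CPM, and Icosl, the ligand of Icos, stood at 45.0, 88.1 and 132 CPM. C1 values here rest on 62 barcodes. The listed gene Ebi3 had 0 UMIs in C1, and its ratio of 2.02 came from setting that count to 3. Fas and Icosl, also lowest in C1, had 6 and 16 UMIs there.

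Among factors known to act on Cd40, Irf1, an interferon-induced factor, stood at 360.2 CPM in C2 and 249 CPM in C1 in macrophage-like barcodes, Spi1 (PU.1) at 465 and 417 CPM and Irf8 at 395 and 416 CPM. None of these 3 reached 2-fold there, as 10.5% of all genes did. In B-like barcodes, where 30.7% of all genes reached 2-fold, Irf1 did so, at 64.8, 153 and 92.0 CPM for C1, C3 and C4, and Spi1, Irf8 and Spib, an ETS factor of B cells, did not.

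CD40 ligand also binds integrins. In macrophage-like barcodes Itgb2, the common chain of leukocyte integrins, stood at 208 CPM in C1 and 421 CPM in C2 and was the 1 of 4 tested that reached 2-fold, against 10.5% of all genes. Its partner Itgam stood at 57.4 and 68.8 CPM. Itgb1 stood at 179 and 255 CPM, and Itga5 at 41.4 and 39.3 CPM. In B-like barcodes both genes tested reached 2-fold, against 30.7% of all genes: Itgb1 stood at 313, 65.9 and 26.0 CPM in C1, C3 and C4, and Itgb3 at 8.45, 10.6 and 5.06 CPM.

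Over 21 profiles of cell classes by library, each with at least 50 barcodes, the genes ordered most like Cd40lg among 11812 genes were Tnfsf11, Rnf19a, Ctla4, Cplane1 and Cd5, with Spearman correlations of log2(CPM + 1) between 0.87 and 0.79. Tnfsf11 encodes RANK ligand, another membrane ligand of the same family on activated T cells. For Cd40 they were Blnk, Cd180, Il4i1, Lmo2 and Ctsh, between 0.95 and 0.93. Blnk is an adaptor of the B cell receptor, and Cd180 a Toll-like receptor homologue of B cells, macrophages and dendritic cells. The profiles of a library share its depth and its free RNA, so these values are descriptions.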

How the data were processed

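Single-cell expression was measured in 4 libraries. Per the file headers, the deposited matrices hold raw counts (UMIs per gene and barcode) written by Cell Ranger 4. Cell Ranger 6.1.2, STAR 2.7.10a and mm10 are named per the submitters' processing notes, and the sources used here do not say why the versions differ. Per the labels' protocols single-cell libraries followed BD Rhapsody, whereas the design text names 10x; barcodes have 16 bases. T cell receptor libraries were not analysed here.

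Doublets were called by Scrublet (scanpy 1.11.5) and removed: 166 for C1 (2.96%), 0 for C2, 2 for C3 (0.0234%) and 116 for C4 (1.95%). The caller failed on C2 and C3, where doublets remain. Counts were scaled to 10000 and log-transformed; clusters came from 2000 variable genes (without Cd40, Cd40lg and receptor V, D and J genes), 30 components, 15 neighbours and leidenalg 0.10.2 (resolution 1), with no batch integration. A cluster took the class with the highest scaled marker score, at least 0.5, with at least 3 markers each in at least 10% of barcodes. It stayed unnamed if its 10 leading genes held more markers of another class, or if its depth was under 33.3% of its library's with no marker among them. Leading genes were ranked by fold against clusters of other classes, and clusters of at least 100 barcodes that failed were split at resolution 0.5; both steps were set after clusters had been seen.

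CPM is a gene's UMIs over all UMIs of the group. Ratios use genes with at least 50 UMIs in their highest library and libraries with at least 50 barcodes of the class, with a count of 0 set to 3; on simulated data the ratio step was tested. Named genes were the 4 highest of each list by median CPM, plus the largest ratio, and for likeness the leading 5; others named in the text, and splits by cluster or by several genes, were chosen after values were seen. Some listed genes are not reported here and were left out of lists and splits after values had been seen. Members, lists and rules were chosen with earlier results of these data known. Python 3.11.15, scipy 1.17.1, numpy 2.4.6, scikit-learn 1.9.0 and matplotlib 3.10.9 were used. Alternatives covered filters, doublets, clustering, naming, gates, thinning, free RNA and single barcodes.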

Additional observations from a re-analysis of the deposited data

How the results depend on the processing

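Most levels stayed within their own counting interval under the alternatives: 43 of 48 values for Cd40lg in CD4 T-like barcodes, 46 of 48 for Cd40 in B-like barcodes and 21 of 24 for Cd40 in macrophage-like barcodes. C1 was highest for Cd40lg, and C2 above C1 for Cd40 in macrophage-like barcodes, in all of them. With leading genes ranked over all other barcodes, chosen after seeing the data, Cd40lg in CD4 T-like barcodes was 287, 66.7 and 149 CPM for C1, C2 and C4. The C2 value was 43.2 CPM with each library alone, and with at least 2 Cd4 UMIs it was 162. These settings keep other barcodes as CD4 T-like (8 in C1, 435 and 360 in C2). Cd40 in B-like barcodes of C4 was 101 CPM with called doublets kept and 99.1 with each library alone. In macrophage-like barcodes it was 113 CPM in C2 with the class set per barcode and 114 without barcodes holding T cell UMIs, and 15.3 in C1 without the barcode with most Cd40 UMIs; the last 2 settings were chosen after seeing the data. Without the barcode with most Cd40 UMIs, B-like barcodes of C2 stood at 84.0 CPM and no longer led.

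Most shares with a UMI moved with depth. Thinned to 1000 UMIs and unthinned, they were 25.1% and 70.5% in C1, 13.9% and 33.6% in C2, 15.4% and 48.6% in C3, and 11.5% and 48.0% in C4 for Cd40lg in CD4 T-like barcodes. For Cd40 in B-like barcodes they were 3.23% and 22.6% in C1, 9.14% and 46.2% in C3, and 9.56% and 35.7% in C4, and in C2 0% and 5 of 10 barcodes. For macrophage-like barcodes they were 1.53% and 8.45% in C1, and 9.07% and 40.3% in C2. The 9.07% and the unthinned share of B-like barcodes of C2 stayed within the interval of the share at 2000 UMIs. Ranked by Pearson correlation, 2 of the 5 genes most like Cd40 and 2 of the 5 most like Cd40lg were shared with the Spearman ranking.

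Dendritic-like barcodes reached 50 in no library as reported, so no level was compared. They did so only in C1 with each library clustered alone (55 barcodes, 37.8 CPM of Cd40), among the 8 alternative clusterings, filters and classings tried. No paired analysis was possible because each library is 1 sample of unknown group. With 1 library per group nothing here measures the spread between mice. Unnamed clusters held up to 20.8% of Cd40 UMIs.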

Other observations

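Few barcodes held both genes. A Cd40 and a Cd40lg UMI were found together in 6, 10, 17 and 5 barcodes of C1 to C4, where 300, 367, 928 and 1166 kept barcodes had Cd40lg. In C1 and C2, 4 and 9 of them were macrophage-like, and in C3, 6 were T-like and 7 B-like. Their median depths were 15544, 18673, 12136 and 10812 UMIs, against 6130, 4939, 8076 and 5158 in all kept barcodes, and their median doublet scores were 0.108, 0.126, 0.0786 and 0.0724 against 0.0382, 0.0556, 0.0707 and 0.0494. Whether they held more than 1 cell was not tested.

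Cells outside the immune classes added little. Endothelium-like barcodes held 5 Cd40 UMIs in 56 barcodes of C1 (13.9 CPM, 4.52 to 32.5) and 0 in 18 of C2. Salivary epithelium-like barcodes stood at 6.74 CPM in C1 (2.19 to 15.7) and 13.5 CPM in C2 (2.79 to 39.6), from 5 and 3 UMIs. By Pearson correlation the gene most like Cd40lg after Tnfsf11 was Gm14718, at 0.84, the annotated gene next to Cd40lg on chromosome X, 7764 bases away on the side of lower coordinates.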
